A study of Mus musculus with 27 samples.

Results

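The 10 genes described here encode 3 vascular endothelial growth factors (VEGFs), Vegfa, Vegfb and Vegfc, the angiopoietins Angpt1 and Angpt2, and the 5 receptors Kdr, Flt1, Flt4, Tek and Tie1. They were chosen by name as the members of a signalling pathway, with earlier results of these data known. All 10 were found among the 24025 genes of the bulk RNA table and among the 19020 genes of the single-cell table.

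Blood vessels and the endocardium, the inner lining of the heart, are built from endothelial cells that carry these receptors on their surface. Kdr is the main signalling receptor for Vegfa, Flt1 binds Vegfa and Vegfb and can act as a trap for them, and Flt4 is the receptor for Vegfc on lymphatic and sprouting endothelium. Tek, also known as Tie2, is activated by Angpt1, is held back or activated by Angpt2 depending on context, and pairs with the related receptor Tie1; in the developing heart, ligands made by the myocardium act on the neighbouring endocardium.

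The study deleted Hand2as (Hand2os1), a long non-coding RNA gene next to the heart transcription factor gene Hand2, in C57BL/6 mice. In allele F the whole gene is deleted, in allele D only its 3′ distal part. Bulk messenger RNA was measured in whole hearts at E11.5, a mid-gestation stage (3 F/+ and 3 F/F libraries), in ventricles at E16.5 (3 F/+ and 3 F/F) and in cardiomyocytes from mice 8 weeks old (5 +/+, 2 D/+ and 6 D/D), so the embryonic controls carry 1 F allele and the 8-week controls are wild type or carry 1 D allele. Single cells came from E11.5 hearts, with 1 library of +/+ and 1 of F/F embryos from crosses between heterozygotes, each made from 6 hearts that were dissociated with trypsin, sorted for living cells and pooled. The labels do not say whether a bulk library came from 1 animal or several, and p-values measure only the spread between these libraries.

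Bulk levels are FPKM, fragments scaled to transcript length and library size, a scale on which genes of different length can be compared, and their read depth is unknown. Hand2os1 was listed at 0 in all E11.5 and all E16.5 F/F libraries, at 0.37 to 1.4 FPKM in the E16.5 F/+ libraries and at 5.25 to 13.48 FPKM in 6 of 7 8-week controls, but at 0 in +/+ replicate 5, against that library's label. The 6 D/D libraries, in which only the 3′ part is deleted, held 0 to 2.67 FPKM. That library and D/D replicate 6 stood apart from the other 11 8-week libraries in a clustering of all genes. Gapdh, a gene used by every cell, was at 0.12 to 5.09 FPKM in the embryonic libraries and at 980.45 to 2528.57 FPKM in the 8-week libraries, while the single-cell libraries held 2334 and 2436 CPM of Gapdh at E11.5 (CPM, UMIs scaled to a common total; a UMI is a molecule counted by its barcode), so bulk levels of embryonic and 8-week libraries may not share a scale. The single-cell table holds 2503 +/+ and 3368 F/F cells after filtering, with a median of 13369 and 13403 UMIs per deposited cell barcode, and 18 barcode sequences occurred in both libraries. Hand2os1 had 1 UMI in the library labelled +/+ and 9 in the library labelled F/F, so it does not back those labels, and every single-cell difference between genotypes below is one between the libraries so labelled.

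Promoters of 8 of the 10 members (250 bases before to 50 after the start of the gene) were found in the RefSeq table of build GRCm38.p6, all but those of Angpt1 and Angpt2. The promoters of 4 receptors are shown because they differ in GGAAG, a core sequence recognised by ETS factors, the transcription factor family that marks endothelial genes. Each reads 5′ to 3′ on the strand of the gene, with GGAAG or its reverse complement CTTCC in capitals.
Tie1: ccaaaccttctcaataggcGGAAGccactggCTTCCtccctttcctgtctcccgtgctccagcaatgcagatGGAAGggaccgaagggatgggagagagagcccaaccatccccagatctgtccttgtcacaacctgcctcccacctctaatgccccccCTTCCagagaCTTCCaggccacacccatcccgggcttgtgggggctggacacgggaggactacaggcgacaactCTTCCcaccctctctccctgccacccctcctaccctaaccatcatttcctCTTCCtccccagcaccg
Flt1: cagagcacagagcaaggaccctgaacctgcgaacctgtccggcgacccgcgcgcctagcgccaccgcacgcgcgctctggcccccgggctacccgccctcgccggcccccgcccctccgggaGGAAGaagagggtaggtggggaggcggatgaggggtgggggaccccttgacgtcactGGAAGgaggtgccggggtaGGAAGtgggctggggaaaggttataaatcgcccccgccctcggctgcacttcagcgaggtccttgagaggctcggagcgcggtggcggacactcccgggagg
Kdr: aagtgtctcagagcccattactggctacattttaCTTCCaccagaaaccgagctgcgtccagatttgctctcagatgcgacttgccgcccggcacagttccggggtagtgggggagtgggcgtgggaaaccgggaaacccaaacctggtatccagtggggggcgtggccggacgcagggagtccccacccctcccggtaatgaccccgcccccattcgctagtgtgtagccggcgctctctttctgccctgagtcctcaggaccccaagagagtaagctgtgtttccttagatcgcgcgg
Tek: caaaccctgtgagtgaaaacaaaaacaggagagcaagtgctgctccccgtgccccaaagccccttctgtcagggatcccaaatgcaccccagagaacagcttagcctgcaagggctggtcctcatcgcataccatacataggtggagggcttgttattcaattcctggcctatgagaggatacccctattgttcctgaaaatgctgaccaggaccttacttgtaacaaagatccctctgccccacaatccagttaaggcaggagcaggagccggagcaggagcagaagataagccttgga
The Tie1 promoter (chr4:118489800-118490099, minus strand) held 7 matches, that of Flt1 (chr5:147725962-147726261, minus strand) 3 and that of Kdr (chr5:75978406-75978705, minus strand) 1. The promoter of Tek (chr4:94739039-94739338, plus strand) held none. Flt4 had 1 match, the 2 listed promoters of Vegfa had 1 and 2, and Vegfb and Vegfc had none. A match on either strand was present in 71.4% of 32851 promoters of the same length, so a single match is common. The longer ETS motif ACAGGAA was found once in the promoters of Tie1 and Vegfc and in no other of the 8 members, against 8.67% of all promoters, and the SOX motif AACAATN was found in the Tek promoter, against 10.7%. The hypoxia response core ACGTG was found in 1 of the 2 Vegfa promoters, against 19.6% of all promoters.

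The single-cell libraries show which cells of the E11.5 heart held each transcript. Cells were clustered without the 10 members and the other pathway genes, and clusters were named from marker lists, giving 193 +/+ and 285 F/F endothelial-like cells, 456 and 782 cardiomyocyte-like, 150 and 256 epicardial-like, 249 and 309 mesenchymal-like and 956 and 1239 erythroid-like cells. All 5 receptors had their highest level in the endothelial-like class in both libraries. Vegfb and Angpt1 were highest in the cardiomyocyte-like class, Vegfa in the cardiomyocyte-like class and in the unnamed cluster 11, and Vegfc in mesenchymal-like cells and 3 unnamed clusters. Levels are CPM of the class's summed UMIs with exact Poisson 95% intervals, which cover counting error only.

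**Figure D1:**
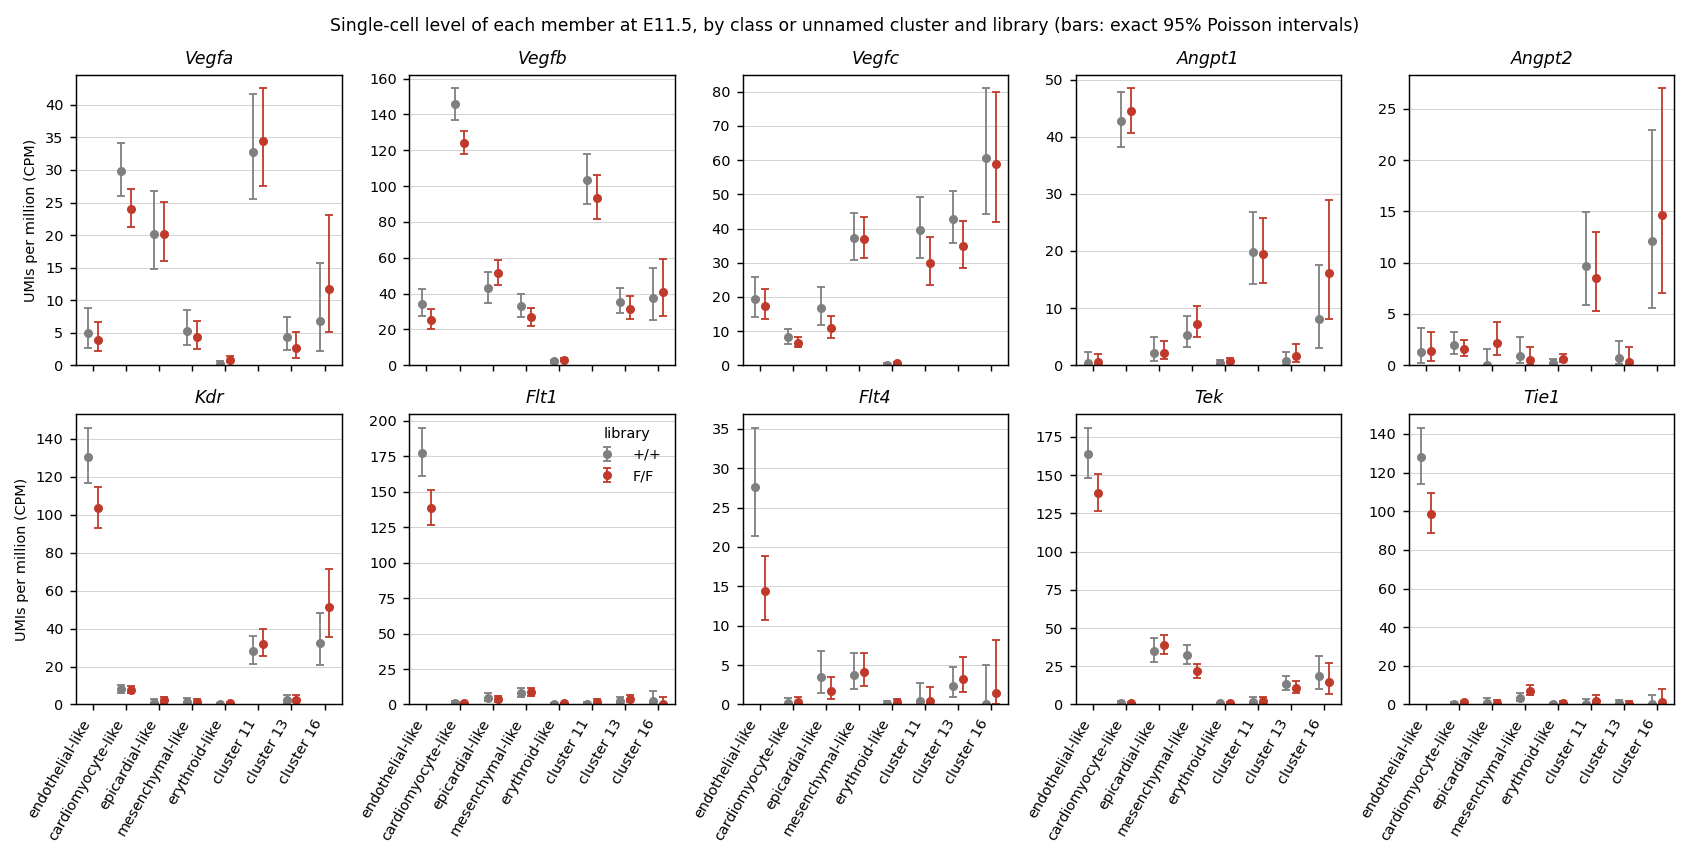
Level of each member in CPM (linear axis from 0) by class or unnamed cluster at E11.5, with the +/+ library in grey and the F/F library in red; points are sums over cells and bars are exact 95% Poisson intervals. Receptors in the lower row peak in endothelial-like cells, where Flt1 stood at 177 CPM in the +/+ library, and Vegfb in the upper row peaks in cardiomyocyte-like cells at 146 CPM.

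Among the ligands, Vegfb, which signals through Flt1, stood at 146 CPM (137 to 155) in +/+ and 124 CPM (118 to 131) in F/F cardiomyocyte-like cells and at 34.3 and 25.4 CPM in endothelial-like cells. Vegfa, the main angiogenic VEGF, was at 29.9 CPM (26.0 to 34.1) and 24.0 CPM (21.2 to 27.0) in cardiomyocyte-like cells, and at 20.2 CPM in epicardial-like cells of both libraries. It was at 32.8 CPM (25.5 to 41.6) and 34.4 CPM (27.5 to 42.5) in cluster 11, led by the outflow tract genes Rspo3, Bmp4 and Sema3c, where the cardiomyocyte markers were high too. Endothelial-like cells, which carry its receptors, held 5.02 and 3.94 CPM. Within the cardiomyocyte-like class, Vegfa was at 38.4 and 27.1 CPM in cluster 7, led by Myoz2 and the ventricular gene Myl2, and at 24.4 and 20.5 CPM in cluster 6, led by the trabecular and atrial genes Nppa and Gja5, with intervals that overlap in the F/F library.

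Angpt1, the activating ligand of Tek, showed the opposite order in those clusters. It was at 52.2 CPM (45.4 to 59.8) in +/+ and 56.1 CPM (49.3 to 63.5) in F/F cells of cluster 6, and at 28.3 CPM (22.6 to 35.0) and 34.8 CPM (30.4 to 39.7) in cluster 7. The intervals of the clusters did not overlap in either library. Cluster 15, a small cardiomyocyte-like cluster of 23 and 53 cells led by the sinus node factor Shox2, held 63.0 and 58.9 CPM, with intervals that overlap those of cluster 6. In endothelial-like cells, which carry its receptor, Angpt1 had 1 and 2 UMIs in all.

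Vegfc, the ligand of Flt4, was at 37.3 CPM (30.9 to 44.7) in +/+ and 37.0 CPM (31.4 to 43.3) in F/F mesenchymal-like cells. It was at 60.5 and 58.7 CPM in cluster 16, led by the mural gene Rgs5, at 42.8 and 34.8 CPM in cluster 13, led by Inhba, Postn and Meox1, and at 39.6 and 29.9 CPM in cluster 11. The intervals of these 4 groups overlapped, except for cluster 16 against cluster 11 in the F/F library, and the cardiomyocyte-like cluster 7 held 7.07 and 4.23 CPM. Angpt2 was low throughout: its highest levels were 12.1 and 14.7 CPM in cluster 16, from 9 and 10 UMIs, and 9.65 and 8.50 CPM in cluster 11.

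Among the receptors in endothelial-like cells, Flt1 stood at 177 CPM (161 to 195) in the +/+ and 139 CPM (127 to 151) in the F/F library. Tek stood at 164 and 138 CPM, Kdr at 131 and 103 CPM, Tie1 at 128 and 98.6 CPM, and Flt4, the receptor of Vegfc, at 27.6 and 14.4 CPM. Erythroid-like cells, which should lack these transcripts, held between 0.0724 and 0.651 CPM of each receptor in the +/+ library and between 0.274 and 1.21 CPM in the F/F library. With every cell thinned to 5000 UMIs, 59.4% of endothelial-like +/+ cells and 48.5% of F/F cells had a Flt1 UMI, against 0.228% and 0.426% of erythroid-like cells; without thinning the shares were 78.8% and 71.6%, at median depths of 11652 and 11886 UMIs, against 0.628% and 1.21% at 10906.5 and 11651 UMIs.

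The receptors did not share 1 pattern within the endothelium. Cluster 12, led by Emcn, Plvap, Npr3, Gja4 and Tmem100, held 228 and 196 CPM of Kdr, and cluster 2, led by Stmn2, Klf2 and Aqp1, held 63.2 and 57.9 CPM, with intervals that did not overlap in either library. Tek had the opposite order, with 197 and 154 CPM in cluster 2 and 116 and 107 CPM in cluster 12. Tie1 was at 128 CPM in both clusters of the +/+ library, and at 92.3 and 111 CPM in the F/F library with overlapping intervals. Flt4 was higher in cluster 12 than in cluster 2 in the +/+ library (41.8 against 17.7 CPM), while the F/F intervals overlapped (18.8 against 12.2 CPM). The endothelial marker list summed to 3314 and 3087 CPM in cluster 12 and to 2612 and 2595 CPM in cluster 2. The endocardial list summed to 1631 and 1394 CPM in cluster 12 and to 1602 and 1429 CPM in cluster 2.

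A pair of receptors was also measured outside the endothelium. Tek stood at 35.2 CPM (28.0 to 43.7) and 39.1 CPM (33.3 to 45.7) in epicardial-like cells, where the 10 endothelial markers summed to 88.0 and 96.1 CPM, against 2900 and 2757 CPM in endothelial-like cells. Tek there was therefore a larger fraction of its endothelial level than those markers were of theirs. The 6 endocardial markers summed to 249.4 and 244.7 CPM in epicardial-like cells, against 1614 and 1417 CPM in endothelial-like cells. The part of endothelial or endocardial RNA in the Tek level there was not tested. In mesenchymal-like cells Tek stood at 32.3 and 21.6 CPM (ratio 0.669, 0.499 to 0.897), with the endothelial markers at 513.7 and 518.1 CPM. Kdr stood at 122 CPM (84.1 to 172) and 55.9 CPM (39.6 to 76.8) in the Shox2-led cluster 15, where the endothelial markers summed to 44.4 and 42.7 CPM and Flt1 had 2 and 0 UMIs. Kdr was also at 32.3 and 51.4 CPM in cluster 16 and at 28 and 32 CPM in cluster 11, while the other 2 cardiomyocyte-like clusters held at most 7.41 CPM.

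Across the 17 clusters with at least 50 cells, the pattern most like that of Flt1 was that of Tie1 (Pearson r of log2 values 0.967), and the reverse held too. The genes most like Flt4 were Tm4sf1, Tmem100 and Npr3 (r from 0.933 to 0.967), those most like Kdr were Cmtm8, Tusc2 and Efna1 (0.835 to 0.894), and those most like Tek were Ehd2, Ebf1 and Slc9a3r2 (0.947 to 0.957). Angpt1 was most like Cap2, Ndufs1 and Dlat (0.919 to 0.931) and Vegfb most like Wrb, 1700025G04Rik and Ndufa10 (0.984 to 0.985). The remaining top genes were Fhl1, Nid2 and Ndrg2 for Vegfa (0.934 to 0.940), Asb4, Rcn1 and Fkbp10 for Vegfc (0.956 to 0.971) and Taf7, Iigp1 and Nrp2 for Angpt2 (0.816 to 0.821). These are descriptions over clusters that share the same 2 libraries, among 4630 genes.

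The question of the study was which genes differ between deletion and control hearts. In single cells the receptors' levels in endothelial-like cells were lower in the F/F library for all 5, and this comparison has 1 library per genotype and so no test. The F/F over +/+ ratio was 0.52 for Flt4 (95% counting interval 0.354 to 0.761; 66 and 51 UMIs), 0.77 for Tie1 (0.658 to 0.900), 0.781 for Flt1 (0.684 to 0.891), 0.792 for Kdr (0.679 to 0.924) and 0.843 for Tek (0.737 to 0.965). With cells thinned to 5000 UMIs the intervals of Kdr (0.847, 0.649 to 1.11) and Tek (0.858, 0.698 to 1.06) included 1, while those of Flt1 (0.784, 0.639 to 0.962), Tie1 (0.721, 0.559 to 0.930) and Flt4 (0.518, 0.270 to 0.980) did not. Vegfb, Vegfa and Vegfc, the 3 ligands with enough UMIs in these cells, had ratios of 0.739, 0.785 and 0.907 with intervals that include 1. A ratio under 1 was thus seen for 8 of 8 members, against 51.8% of 10117 genes, and the members' median log2 ratio was -0.35 against -0.02 for all genes. It was also seen for 6 of 6 endocardial markers (median -0.26) and 7 of 10 endothelial markers (-0.12), so it was not particular to the members. Of the 10 cardiomyocyte markers tested, 0 had a ratio under 1 (median 0.94).

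Only Flt4 passed 1.5-fold among the 8 members in these cells, while 11.9% of all genes did. The ratio of Flt4 was 0.450 (0.256 to 0.774) in cluster 12 and 0.686 (0.388 to 1.22) in cluster 2. Over the alternative filters and scalings it lay between 0.514 and 0.568, and 1.5-fold was passed in each. These settings reuse the UMIs of the same 2 libraries, so they are not independent checks of the ratio. Tek had a ratio of 0.779 (0.664 to 0.913) in cluster 2 and 0.920 (0.708 to 1.20) in cluster 12. Kdr had 0.917 (0.698 to 1.21) and 0.862 (0.714 to 1.04), both nearer 1 than its class ratio. Flt1 had 0.773 and 0.757, and Tie1 0.719 and 0.873. Cluster 2 held 136 +/+ and 207 F/F cells, at median depths of 10012 and 11302 UMIs. Cluster 12 held 57 and 78 cells, at 17138 and 15176.5 UMIs. The part of this cluster make-up in the class ratios was not tested. In the same cells the 10 endothelial markers summed to 2900 CPM in the +/+ and 2757 CPM in the F/F library, and the 6 endocardial markers to 1614 and 1417 CPM. The 11 cardiomyocyte markers summed to 764.3 and 1386 CPM there and the 7 erythroid markers to 13630 and 15010 CPM; none of these lists had a marker at 0, and their part in the ratios was not tested.

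**Figure D2:**
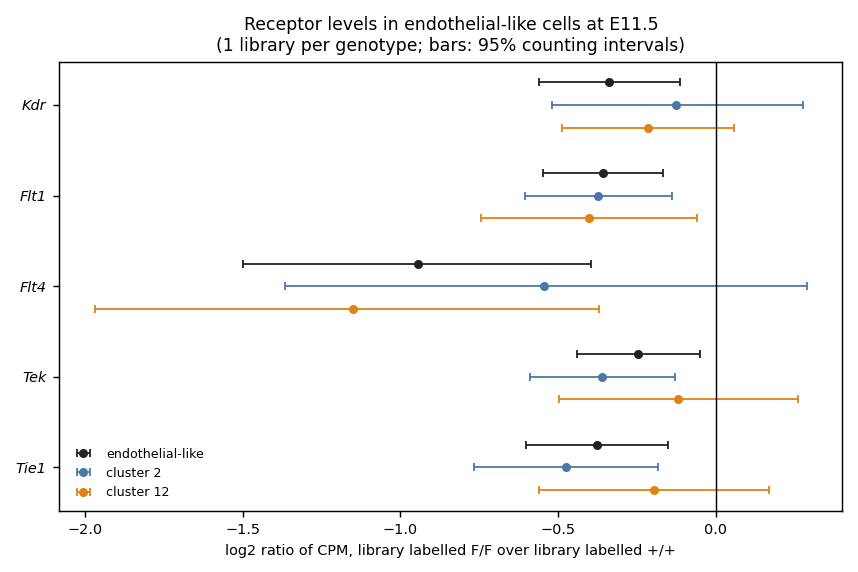
Log2 ratio of CPM in the F/F library over the +/+ library for each receptor in all endothelial-like cells (black) and in the endothelial clusters 2 (blue) and 12 (orange), with 95% counting intervals; 1 library per genotype. All points lie below 0, and Flt4 lies farthest, with a ratio of 0.52 over the class.

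In the other classes, 5 further pairs of member and class passed 1.5-fold, of 33 pairs with at least 20 UMIs in the 5 classes that held at least 100 cells in each library. Vegfc in epicardial-like cells had a ratio of 0.646 (0.410 to 1.02), in a class where 12.9% of genes passed that fold. Tie1 in mesenchymal-like cells had 2.02 (0.979 to 4.48), where 11% of genes passed it. The other 3 were Flt1, Tek and Tie1 in erythroid-like cells, at 1.21 CPM or less in either library, where 16.8% of genes passed it. None of these 5 pairs was among those past 1.5-fold with cells thinned to 5000 UMIs, where fewer pairs could be tested. Ligands in cardiomyocyte-like cells stayed within 1.5-fold, where 7.87% of genes passed it: the ratio was 0.803 (0.670 to 0.964) for Vegfa, 0.853 (0.787 to 0.925) for Vegfb and 1.04 (0.899 to 1.20) for Angpt1. Clusters 6, 7 and 15 held 246, 187 and 23 of these cells in the +/+ and 310, 419 and 53 in the F/F library. In clusters 6 and 7 the ratios were 0.841 and 0.707 for Vegfa and 0.824 and 0.889 for Vegfb. For Angpt1 they were 1.07 and 1.23, and 0.935 in cluster 15. Kdr in cluster 15 had a ratio of 0.458 (0.279 to 0.753), from 33 and 38 UMIs in 23 and 53 cells. Outside those 5 classes, in 59 and 45 megakaryocyte-like cells, the ratio was 2.44 for Kdr (1.16 to 5.30; 13 and 21 UMIs), 1.77 for Tie1 (0.883 to 3.61), 0.625 for Vegfb (0.333 to 1.13), 1.15 for Flt1 and 1.29 for Angpt1.

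In bulk hearts at E11.5, none of the 10 members was called between F/F and F/+ by limma at an adjusted p of 0.05, where 0.0087% of 11491 genes were called. Bulk values cannot tell fewer cells of a type from less RNA per cell. Vegfc was at 5.68, 2.35 and 2.67 FPKM in F/+ replicates 1 to 3 and at 7.49, 4.97 and 6.52 FPKM in F/F. The groups overlapped, since F/+ replicate 1 exceeded F/F replicate 2, and the log2 difference of 0.74 ± 0.33 (SE) had a limma adjusted p of 0.999. Vegfb was at 60.97, 84.84 and 66.48 FPKM in F/+ and at 94.85, 81.91 and 93.12 FPKM in F/F, again with an overlap, and its log2 difference was 0.35 ± 0.17. Vegfa stood at 58.57, 72.61 and 41.18 FPKM against 57.65, 50.30 and 57.75 FPKM, with a log2 difference of -0.02 ± 0.21.

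Tek was at 19.50, 19.98 and 22.52 FPKM in F/+ and at 28.01, 23.41 and 28.16 FPKM in F/F hearts, so that every F/F value lay above every F/+ value. Its log2 difference was 0.34 ± 0.18, its 95% interval ran from -0.05 to 0.74, and limma gave an adjusted p of 0.999. Kdr, at 22.05, 22.24 and 18.92 against 22.31, 25.71 and 27.89 FPKM, also did not overlap and differed by 0.25 ± 0.18. Tie1 differed by 0.20 ± 0.17, Flt4 by 0.03 ± 0.22 and Flt1 by -0.03 ± 0.27, and the angiopoietins, at 0.43 to 4.54 FPKM, by -0.07 ± 0.39 (Angpt1) and 0.44 ± 0.50 (Angpt2). The 10 members had a median log2 difference of 0.22 and 7 positive differences, against a median of 0.02 over all genes. The 11 cardiomyocyte markers had a median of 0.22 and 8 positive differences, and summed to 11315 to 13481 FPKM in F/+ and 13632 to 15606 FPKM in F/F libraries. The mesenchymal markers had a median of -0.30. The 4 hepatocyte markers summed to 163.91 FPKM in F/+ replicate 1 and 352.96 FPKM in F/F replicate 2, and to at most 25.1 FPKM in the others. Their part in the members' differences was not tested. The 10 endothelial markers, none of them called, had a median of 0.22, and their summed level was 333.23 to 340.88 FPKM in F/+ and 380.02 to 395.54 FPKM in F/F libraries. Scaling to the endothelial markers used their mean log2 level, not their sum. That mean was 4.32 to 4.58 in F/+ and 4.42 to 4.67 in F/F libraries, which overlapped. With each library scaled to it, the difference was 0.28 ± 0.20 for Tek and 0.19 ± 0.18 for Kdr. The rise in the summed level was not scaled out.

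**Figure D3:**
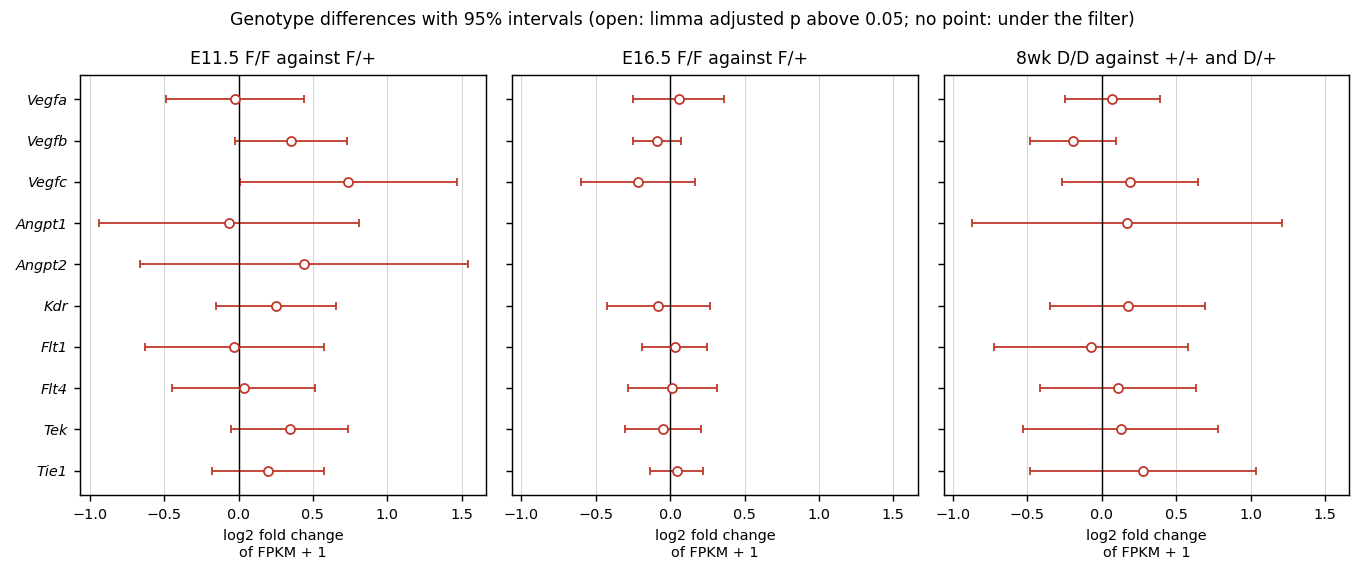
Log2 fold change of FPKM + 1 for each member between deletion and control libraries at E11.5, E16.5 and 8 weeks, with 95% intervals from limma on a shared axis. No member was called at any stage, every interval but that of Vegfc at E11.5 (0.01 to 1.47) includes 0, and a missing point marks a member under the filter on low values.

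At E16.5 the genotypes were closer. Angpt1 and Angpt2 were under the filter of a mean of 1 FPKM, and none of the other 8 members was called, where 0.00935% of 10699 genes were. Their log2 differences ran from -0.22 ± 0.17 for Vegfc to 0.06 ± 0.13 for Vegfa, and the intervals of Flt1 (-0.19 to 0.25) and Tie1 (-0.13 to 0.22) were the narrowest of the receptors. In F/+ ventricles Angpt1 stood at 0.07, 0.21 and 0.22 FPKM, and F/F ventricles held 0.18, 0.38 and 0.20 FPKM. The test of the difference between the F effects at E16.5 and E11.5 called none of the 10 members, where 0.00875% of genes were called, and gave -0.96 ± 0.37 for Vegfc, -0.44 ± 0.18 for Vegfb and -0.39 ± 0.19 for Tek, all with a limma adjusted p of 0.999.

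In 8-week cardiomyocytes, 9 members passed the filter (all but Angpt2) and none was called between D/D and the 7 controls, where 0.0% of 10249 genes were called; 175 genes had an unadjusted p under 0.05. The log2 differences ran from -0.19 ± 0.14 for Vegfb to 0.28 ± 0.36 for Tie1. The receptors' spread among libraries of 1 genotype was wide. Kdr ranged from 17.63 to 52.65 FPKM (median 27.3) over the 6 D/D libraries and was 32.80, 23.50, 28.09, 12.46 and 25.16 FPKM in +/+ replicates 1 to 5. Replicate 5 of D/D held the highest level of all 5 receptors among the 13 libraries and also the highest sum of the 10 endothelial markers, 733.63 FPKM. Replicate 4 of +/+ held the lowest level of Kdr (12.46), Flt4 (2.87), Tek (2.30) and Tie1 (10.11 FPKM) and the lowest marker sum, 159.53 FPKM. These libraries are labelled cardiomyocytes, and endothelial markers were measured in all of them; the part of endothelial RNA in the receptors' spread was not tested.

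Angpt1 had a different outlying pair. It was at 0.16 FPKM in +/+ replicate 5 and 0.24 FPKM in D/D replicate 6, the libraries that stood apart, and between 1.29 and 7.93 FPKM in the other 11. Without these 2 libraries the 8-week genotype comparison also called no member. Within the other 11 libraries Angpt1 had a mean of 5.10 FPKM in 5 D/D libraries (1.29 to 7.93) and 3.90 FPKM in 6 controls (2.27 to 7.02), which overlapped.

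**Figure D4:**
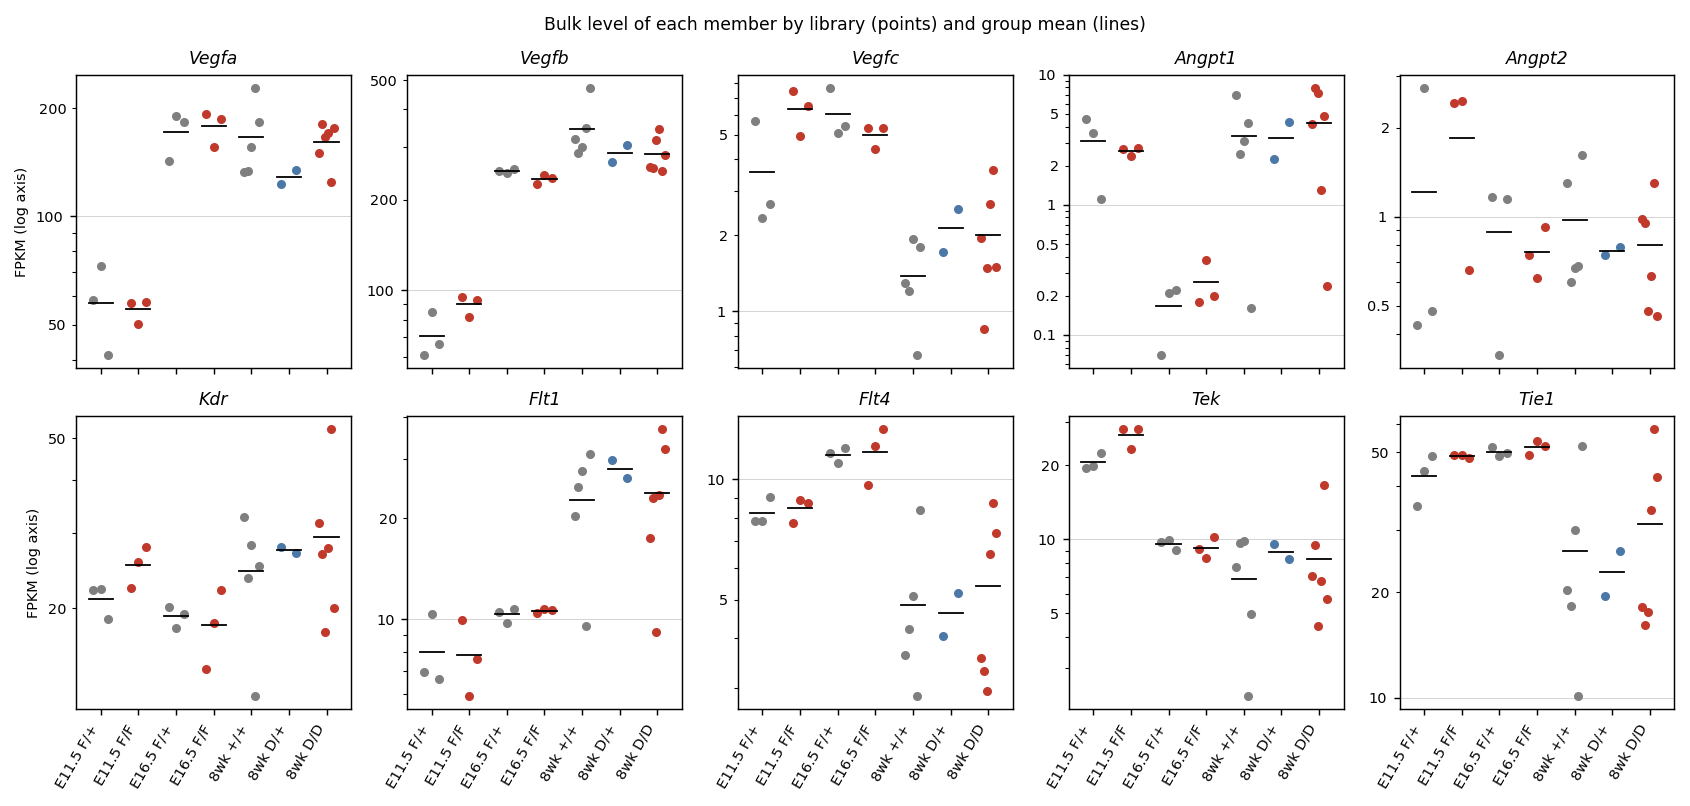
FPKM (log axis) of each member in each bulk library (points) with group means (lines) for the 7 groups; controls in grey, D/+ in blue and F/F or D/D in red. Vegfa and Vegfb step up between E11.5 and E16.5, Tek steps down, and Angpt1 is at most 0.38 FPKM in every E16.5 library and in 2 of the 13 8-week libraries.

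Levels across stages were compared in controls and, in separate libraries, in deletion animals; tissue changes with stage here (whole heart, ventricle, cardiomyocytes), and tissue and stage cannot be told apart. The E16.5 libraries serve in both steps, so the steps are not independent, and differences are on the log2(FPKM + 1) scale, which understates those of low genes. Between E11.5 hearts and E16.5 ventricles, Vegfa and Vegfb were higher and Tek and Angpt1 lower in both genotypes. In F/+ libraries 4 of 10 members were called, 2 higher and 2 lower, where 43.8% of 11437 genes were called, and in F/F libraries the same 4 were called in the same directions, where 44.8% were. The median log2 difference over all genes was -0.14 in each, and the calls over all genes in F/+ split into 1827 higher and 3180 lower, or 2401 and 2356 with median-ratio scaling. With libraries scaled to the endothelial markers 643 were higher and 1610 lower in F/+, and 654 and 1361 in F/F.

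Vegfa rose from 58.57, 72.61 and 41.18 FPKM to 142.90, 190.47 and 183.28 FPKM in F/+ (log2 difference 1.59 ± 0.21, limma adjusted p = 1.6e-06). In F/F it rose from between 50.30 and 57.75 to between 155.93 and 192.90 FPKM, with no overlap (1.67 ± 0.21, limma adjusted p = 8.9e-07). Vegfb rose from 60.97, 84.84 and 66.48 FPKM to 248.80, 244.93 and 253.24 FPKM in F/+ (1.81 ± 0.17, limma adjusted p = 1.4e-08) and by 1.37 ± 0.17 in F/F. At E11.5 Vegfb was highest in cardiomyocyte-like cells, and Vegfa in those cells and in the unnamed cluster 11. In the F/F library Vegfa was higher in cluster 11 than in the class (34.4 against 24.0 CPM). The 11 cardiomyocyte markers summed to 11315 to 15606 FPKM in the E11.5 and to 15151 to 17104 FPKM in the E16.5 libraries. Vegfc, at 2.35 to 7.49 FPKM at E11.5 and 4.38 to 7.68 FPKM at E16.5, was not called in either genotype (0.68 ± 0.29 in F/+, -0.27 ± 0.29 in F/F); in F/+ it was called at 0.81 with median-ratio scaling (limma adjusted p = 0.024), at 0.93 with a GC trend removed (0.021) and at 0.99 without E11.5 F/+ replicate 1 (0.013).

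Tek, the angiopoietin receptor, fell from 19.50, 19.98 and 22.52 FPKM to 9.78, 9.96 and 9.01 FPKM in F/+ (log2 difference -1.03 ± 0.36, limma adjusted p = 0.023). In F/F it fell from 28.01, 23.41 and 28.16 to 9.10, 8.43 and 10.25 FPKM (-1.42 ± 0.36, limma adjusted p = 0.0026). All 12 values separate the stages, and the F/F call held under every alternative, while the F/+ call was lost with median-ratio scaling (limma adjusted p = 0.059), with a GC trend removed (0.083) and without E11.5 F/+ replicate 3 (0.062) or E16.5 F/+ replicate 3 (0.063). The other receptors were not called: Flt1 differed by 0.36 ± 0.37, Flt4 by 0.44 ± 0.30, Kdr by -0.13 ± 0.30 and Tie1 by 0.24 ± 0.43 in F/+. Over the same libraries the endothelial markers summed to 333.23 to 395.54 FPKM at E11.5 and 409.73 to 460.50 FPKM at E16.5, the 6 endocardial markers to 179.07 to 254.79 and 80.73 to 91.66 FPKM, and the 9 epicardial markers to 249.16 to 402.37 and 69.21 to 84.12 FPKM. Scaled to the mean log2 level of the endothelial markers, Tek differed by -1.13 ± 0.37 in F/+ and -1.44 ± 0.37 in F/F.

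Angpt1, the ligand that activates Tek, was at 4.54, 3.58 and 1.10 FPKM in E11.5 F/+ and at 0.07, 0.21 and 0.22 FPKM in E16.5 F/+ libraries. The groups do not overlap, and the log2 difference was -1.69 ± 0.61 (limma adjusted p = 0.027) in F/+ and -1.52 ± 0.61 (limma adjusted p = 0.045) in F/F, where it went from 2.67, 2.39 and 2.74 to 0.18, 0.38 and 0.20 FPKM. The direction held under every alternative, but the calls did not. The limma adjusted p was 0.077 and 0.114 with median-ratio scaling and 0.103 and 0.174 with endothelial scaling, 0.072 in F/F with no filter, and leaving out any 1 of the 6 F/F libraries, or any F/+ library but E11.5 replicate 3, took it above 0.05 (0.057 to 0.109). With a pseudocount of 0.1 FPKM the differences were -3.42 and -2.97. With the GC trend removed the limma adjusted p was 0.0046 and 0.0064; the Angpt1 transcript has the lowest GC content of the 10, 39.3%. Angpt2, at 0.34 to 2.73 FPKM, was not called; in F/F its difference of -0.62 ± 0.33 became -0.97, and was called, without E11.5 F/F replicate 3 (limma adjusted p = 0.023).

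**Figure D5:**
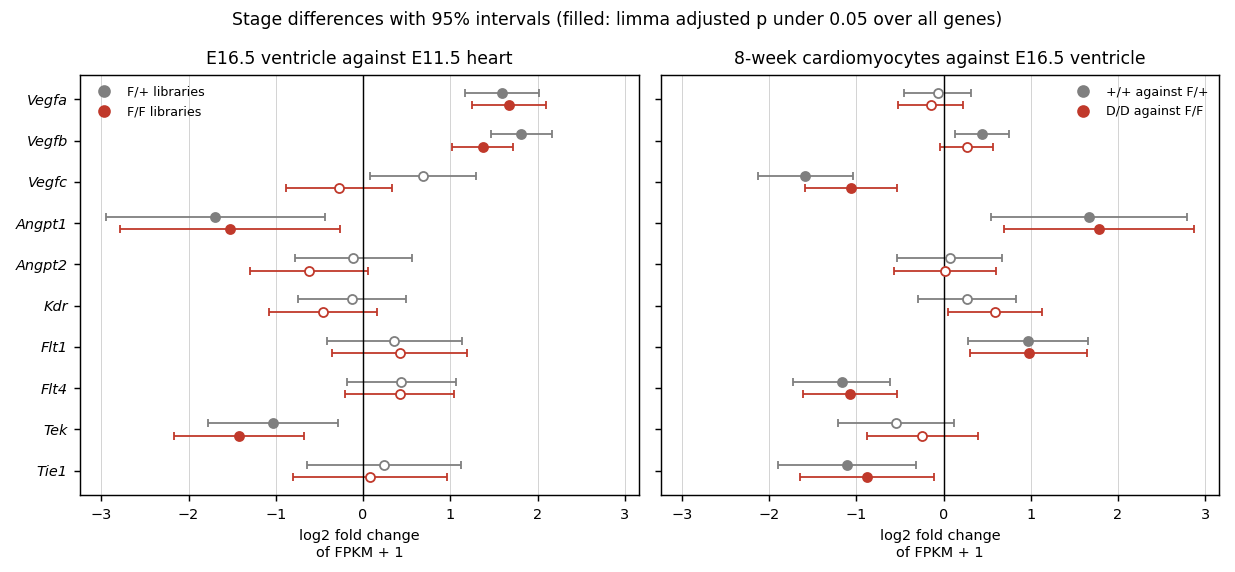
Log2 fold change of FPKM + 1 between stages with 95% intervals, in controls (grey) and deletion libraries (red); filled points have a limma adjusted p under 0.05. Left, E16.5 against E11.5: Vegfa and Vegfb lie above 0 and Tek and Angpt1 below it in both genotypes. Right, 8 weeks against E16.5: Flt1 and Angpt1 lie above 0 and Vegfc, Flt4 and Tie1 below it.

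Between E16.5 ventricles and 8-week cardiomyocytes the members split again, on levels whose scale may differ given the Gapdh values above. In the controls 6 of 10 members were called, 3 higher and 3 lower, where 67.9% of genes were called, and in D/D against F/F 5 were, 2 higher and 3 lower, where 68.5% were. The median of all genes was -0.35 in both. In the controls 2704 genes were higher and 5057 lower, or 1793 and 3317 with libraries scaled to the endothelial markers. With median-ratio scaling 3871 were higher and 3399 lower, and with the GC trend removed 3790 and 3773, so the downward majority depended on the scaling. Flt1 was at 10.56, 9.77 and 10.74 FPKM in E16.5 F/+ and at 20.35, 24.83, 27.75, 9.59 and 31.07 FPKM in 8-week +/+ libraries, all but replicate 4 above the earlier range, and it rose by 0.97 ± 0.33 (limma adjusted p = 0.014). In D/D against F/F it rose by 0.98 ± 0.32 (limma adjusted p = 0.010). Flt4 fell from 11.65, 10.96 and 11.95 to 3.64, 4.22, 5.10, 2.87 and 8.39 FPKM in the controls (-1.17 ± 0.27, limma adjusted p = 0.00062), without overlap, and by 1.07 ± 0.26 on the log2 scale in D/D against F/F.

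Vegfc, the ligand of Flt4, moved the same way. It was at 7.68, 5.10 and 5.44 FPKM at E16.5 and at 1.29, 1.20, 1.94, 0.67 and 1.79 FPKM at 8 weeks in the controls (log2 difference -1.58 ± 0.26, limma adjusted p = 1.6e-05), and the D/D libraries (0.85 to 3.64 FPKM) lay below all 3 F/F libraries (4.38 to 5.34 FPKM). Tie1 was at 48.66 to 51.92 FPKM at E16.5 and at 20.21, 18.27, 30.09, 10.11 and 52.00 FPKM at 8 weeks (-1.11 ± 0.38, limma adjusted p = 0.014). Its groups overlap through +/+ replicate 5, and the call was lost with median-ratio scaling (-0.64, limma adjusted p = 0.153) and with the GC trend removed (-0.65, limma adjusted p = 0.069). In D/D against F/F the Tie1 call (-0.88 ± 0.37, limma adjusted p = 0.040) was also lost without any 1 of D/D replicates 1 to 3 or of the 3 F/F libraries (limma adjusted p from 0.073 to 0.095).

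Angpt1 rose from at most 0.22 FPKM in E16.5 F/+ to 7.02, 2.44, 3.10, 4.26 and 0.16 FPKM in the 8-week +/+ libraries (log2 difference 1.67 ± 0.54, limma adjusted p = 0.0098), where only replicate 5 stayed in the earlier range, and by 1.78 ± 0.53 in D/D against F/F (limma adjusted p = 0.0047). Vegfb was higher by 0.44 ± 0.15 in the controls (limma adjusted p = 0.013), a call lost when libraries were scaled to the endothelial markers (limma adjusted p = 0.279), and by 0.27 ± 0.15, not called, in D/D against F/F. The latter was called with median-ratio scaling (0.76, limma adjusted p = 0.00032), with the GC trend removed (0.79, limma adjusted p = 5.0e-05) and with a term for sets of 8-week libraries (0.36, limma adjusted p = 0.029). Vegfa differed by -0.07 ± 0.18 and -0.15 ± 0.18, and turned to 0.42 and 0.35 with median-ratio scaling, uncalled each time. Kdr differed by 0.27 ± 0.27 and 0.59 ± 0.26 and was called under median-ratio scaling only in the controls (0.73, limma adjusted p = 0.013) and under that and other alternatives in D/D against F/F (1.06, limma adjusted p = 0.00054). The calls of Flt1, Flt4, Vegfc and Angpt1 held under every alternative run, and without the 2 libraries that stood apart Angpt1 differed by 2.08 and 2.14. The endothelial markers summed to 159.53 to 733.63 FPKM in the 8-week libraries, the mesenchymal markers to 38.08 to 163.3 FPKM against 1202.9 to 1376.8 FPKM at E16.5, and the cardiomyocyte markers to 23894 to 34078 FPKM; their part in these differences was not tested.

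The other genes of the pathway were counted by list. Of the 52 genes on the lists, 45 were tested between genotypes at E11.5, 43 at E16.5 and 42 at 8 weeks, and none was called, where 0.0087%, 0.00935% and 0.0% of all genes were. Between E11.5 and E16.5 in F/+ libraries, 12 of 45 tested list genes rose and 9 fell, a share near the 43.8% called of all genes. Among them, 4 of 7 endothelial genes that respond to these signals rose and 1 fell, with Apln, the ligand of the receptor Aplnr, higher by 2.78 ± 0.50 (limma adjusted p = 9.8e-05), Pdgfb by 2.35 ± 0.39 and the chemokine receptor Cxcr4 lower at -1.99 ± 0.38. Of 12 endothelial transcription factors, 5 rose and 2 fell, led by Tal1 (-3.47 ± 0.30) and Lmo2 (-1.53 ± 0.31), which also serve red cell precursors. Erythroid markers summed to 39196 to 136080 FPKM at E11.5 and to 130.55 to 3303.7 FPKM at E16.5. The part of red cell RNA in the falls of Tal1 and Lmo2 was not tested. Of 8 oxygen-sensing genes, 3 rose, among them Egln3 (2.48 ± 0.33), and 1 fell. Of 13 receptor partners 3 fell, and of 5 co-receptors and other ligands 2 fell.

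Between E16.5 and 8 weeks in the controls, 6 of 45 tested list genes rose and 20 fell, where 67.9% of all genes were called. Over all genes the same fit gave 2704 higher and 5057 lower, while median-ratio scaling gave 3871 and 3399. Of 8 oxygen-sensing genes, 2 rose and 4 fell: Egln1, the hydroxylase that marks Hif1a for removal, was higher by 2.20 ± 0.14, Epas1 by 1.49 ± 0.22, while Hif3a (-5.49 ± 0.23) and Hif1a (-1.88 ± 0.28) were lower. Among 13 receptor partners 2 rose and 6 fell, with Ptprb, the phosphatase that opposes Tek, higher by 1.69 ± 0.28 and the kinase Src lower at -2.51 ± 0.18 (limma adjusted p = 3.5e-11). Of 12 endothelial transcription factors 5 fell and none rose. Of 7 responsive genes 1 rose and 3 fell, and of 5 co-receptors and other ligands 1 rose and 2 fell.

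Over the 25 bulk libraries, the genes most like a member by Pearson r of log2 values, among 7356 genes, were Nos3, Notch1 and Tnks1bp1 for Flt4 (0.960 to 0.982), Arap3, Hdac7 and Rasip1 for Tie1 (0.95 to 0.958) and Ggta1, Gucy1b3 and Ano6 for Tek (0.906 to 0.928). For Flt1 they were Htra3, Klf4 and Aqp1 (0.928 to 0.932) and for Kdr Podxl, Serping1 and Bgn (0.691 to 0.737). Among the ligands they were Asb2, Trak1 and Ak1 for Vegfb (0.974 to 0.977), Cox10, Ckm and Uqcrfs1 for Vegfa (0.941 to 0.946), Ets1, Enoph1 and Prcp for Vegfc (0.907 to 0.913), Hsph1, Oxsr1 and Ddx1 for Angpt1 (0.891 to 0.904) and Ngdn, U2af1 and Bag2 for Angpt2 (0.634 to 0.660). These values follow the stages, which the libraries share, and are descriptions.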

How the data were processed

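The 10 members, the pathway lists and the marker lists were chosen with earlier results of these data known. The bulk kit was stranded and took poly(A) RNA, per the labels' protocols, and CASAVA, TopHat and TopHat2 2.0.11 with build mm9 are named in the submitters' processing notes. The authors deposited the bulk values as 1 table of FPKM per gene and library, a unit read from the values, with no read counts. For single cells the authors deposited raw UMI counts per gene and cell barcode, and Cell Ranger with build mm10 is named in the submitters' processing notes; the ending of each barcode names its library. Repeated identical lines were merged, and 1 bulk gene with a blank cell was dropped.

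Log2(FPKM + 1) was fitted with limma 3.58.1 (R 4.3.3, trend) after dropping genes whose mean in the fitted libraries was under 1 FPKM, and called at a Benjamini-Hochberg adjusted p under 0.05 over all genes tested. Each genotype comparison used the libraries of its stage, and the stage comparisons used all 25. Values after ± are standard errors.

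Barcodes with at least 500 genes were clustered with scanpy 1.11.5 without the members and pathway genes; 52 +/+ and 96 F/F barcodes were removed as likely doublets by their scrublet scores, at an assumed rate of 0.8% per 1000 barcodes, since the automatic threshold marked 6. UMIs were summed per library and class. Ratios carry conditional exact 95% intervals, which cover counting error only, and pairs with fewer than 20 UMIs in all were left out. Pathway genes are named where they were among the 3 largest called changes of their list, and the 3 most alike genes of each member by Pearson r. The bulk fit was tested on simulated data. The alternatives were another pseudocount (0.1), no filter, median-ratio scaling, scaling to the endothelial markers, a replicate block, a single fit of all libraries, a term for sets of 8-week libraries, each library left out, and for single cells the filters, doublets, resolution, scaling and thinning to 5000 UMIs. Chosen after seeing the data were a GC trend removed, the 2 libraries that stood apart left out, and a term for a set of 5 8-week libraries.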

Additional observations from a re-analysis of the deposited data

How the results depend on the processing

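No member was called between genotypes under any alternative, and Vegfa and Vegfb (E16.5 against E11.5, both genotypes), Tek (the same, F/F) and Flt1, Flt4, Vegfc and Angpt1 (8 weeks against E16.5, both genotypes) stayed called under every alternative run. The FPKM files give no read depth, so no counting error is known for bulk values, and the single-cell ratios rest on 1 library per genotype. With libraries scaled to the endothelial markers, the genes called between E11.5 and E16.5 fell in number from 5007 to 2253 (F/+) and from 5124 to 2015 (F/F), and between E16.5 and 8 weeks from 7761 to 5110 (controls) and from 7833 to 5917 (D/D against F/F).

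The number of genes called between F/F and F/+ at E11.5, 1, was 24 when all 25 libraries shared a single fit and 1 to 2 with 1 library left out (2 without F/+ replicate 3). At E16.5 it was 1, with 2 at a pseudocount of 0.1, 2 with endothelial scaling and 0 to 2 with 1 library left out (0 without F/+ replicate 3 or F/F replicate 1, 2 without F/+ replicate 2 or F/F replicate 3). For the difference between these effects it was 1, with 2 at a pseudocount of 0.1, 3 with no filter, 6 with all 25 libraries in a single fit and 1 to 9 with 1 library left out (9 without E11.5 F/+ replicate 3, 2 without E11.5 F/+ or F/F replicate 2). The cause was not tested, and no member was among the calls. Single-cell pairs past 1.5-fold numbered 5 to 8 over the alternatives, but the pairs changed. With thinning to 5000 UMIs, 22 pairs were tested in place of 33, and only Flt4 in endothelial-like cells was shared with the main setting. The others were then Vegfb in endothelial-like, Vegfa in epicardial-like, and Tek and Angpt1 in mesenchymal-like cells. Vegfc in epicardial-like cells was also not among the pairs with doublets kept.

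Replicate numbers did not pair the libraries: deviations of same-numbered libraries correlated at -0.04, -0.02 and 0.08 at E11.5, at -0.08, 0.04 and -0.44 at E16.5 and at -0.11 to 0.53 at 8 weeks, and not every library correlated best with its own number. With the replicate number as a block, 2 genes were called at E11.5 in place of 1, no other count changed, and 2 uncalled members turned sign: Flt4 to -0.045 (D/D against control) and Flt1 to -0.071 (D/D against +/+).

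Other uncalled log2 differences turned sign as follows. With scaling to the endothelial markers, Flt4 -0.032 (F/F against F/+ at E11.5), Flt4 -0.012 and Vegfa -0.050 (D/D against control at 8 weeks), Flt1 -0.14 and Flt4 -0.068 (D/D against +/+ at 8 weeks), Flt4 0.062 (the F effect at E16.5 against E11.5) and Angpt2 -0.15 (8-week D/D against E16.5 F/F). With the GC trend removed, Flt4 0.014 (the F effect at E16.5 against E11.5), Angpt2 0.22 and Kdr 0.22 (E16.5 against E11.5 in F/+), Vegfa 0.13 (8-week +/+ against E16.5 F/+) and Tek 0.0064 and Vegfa 0.043 (8-week D/D against E16.5 F/F). With median-ratio scaling, Kdr 0.073 (E16.5 against E11.5 in F/+), Vegfa 0.42 (8-week +/+ against E16.5 F/+) and Tek 0.20 and Vegfa 0.35 (8-week D/D against E16.5 F/F). With the 2 libraries that stood apart left out, Angpt2 -0.039 (8-week +/+ against E16.5 F/+). With a pseudocount of 0.1, Angpt2 -0.0026 (8-week D/D against E16.5 F/F). The cause was not tested.

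With 1 library left out in turn, these uncalled differences took both signs. For D/D against +/+ at 8 weeks the range was -0.20 to 0.58 for Angpt1, -0.23 to 0.27 for Flt1, -0.027 to 0.30 for Flt4, -0.027 to 0.40 for Tek, -0.00017 to 0.56 for Tie1 and -0.10 to 0.094 for Vegfa. For D/D against control at 8 weeks the range was -0.12 to 0.53 for Angpt1, -0.27 to 0.16 for Flt1, -0.029 to 0.23 for Flt4, -0.0086 to 0.30 for Kdr and -0.083 to 0.26 for Tek. For F/F against F/+ at E11.5 the range was -0.49 to 0.21 for Angpt1, -0.20 to 0.15 for Flt1 and -0.24 to 0.16 for Vegfa. For the F effect at E16.5 against E11.5 the range was -0.11 to 0.59 for Angpt1, -0.12 to 0.23 for Flt1, -0.11 to 0.10 for Flt4 and -0.11 to 0.29 for Vegfa. For 8-week +/+ against E16.5 F/+ the range was -0.16 to 0.19 for Angpt2 and -0.19 to 0.011 for Vegfa. For 8-week D/D against E16.5 F/F the range was -0.059 to 0.080 for Angpt2. For E16.5 against E11.5 in F/+ the range was -0.35 to 0.12 for Angpt2. For F/F against F/+ at E16.5 the range was -0.0071 to 0.055 for Flt1, -0.080 to 0.14 for Flt4, -0.22 to 0.072 for Kdr, -0.12 to 0.011 for Tek and -0.072 to 0.15 for Vegfa.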

Other observations

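Other pathway genes in the endothelial-like cells of the 2 E11.5 single-cell libraries are given here as values; the genes were chosen after their values were seen. Nrp1, a co-receptor of Kdr, stood at 216 CPM in the library labelled +/+ and 190 CPM in the library labelled F/F (ratio 0.882, 95% counting interval 0.785 to 0.991). Ptprb, the phosphatase that opposes Tek, stood at 126 and 127 CPM (1.01, 0.872 to 1.17). Nos3, the endothelial nitric oxide synthase, stood at 97.5 and 73.0 CPM (0.748, 0.624 to 0.897), and Foxo1, a transcription factor restrained by Tek signalling, at 90.0 and 64.5 CPM (0.717, 0.592 to 0.868). Pgf, a further ligand of Flt1, stood at 28.5 and 17.7 CPM (0.624, 0.435 to 0.892), and the endothelial transcription factor Sox18 at 21.3 and 26.8 CPM (1.25, 0.883 to 1.80). Of the 13 endothelial transcription factors tested in these cells, 10 had a ratio under 1, with a median log2 ratio of -0.11, and of the 13 receptor partners 9 did, with a median of -0.22. Among 8 oxygen-sensing genes 4 did (median -0.03), among 5 responsive endothelial genes 3 (-0.18), and among 3 co-receptors and other ligands 3 (-0.21). Over all genes 51.8% had a ratio under 1, and the comparison has 1 library per genotype.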
